A study of Mus musculus with 6 samples.

Results

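Small structured RNAs made by RNA polymerase III (Pol III) were compared with small structured RNAs made by RNA polymerase II (Pol II) in mouse T cells labelled as Cmtr1 conditional knockout (cKO) and in control T cells. The set holds 8 of the 46983 genes in the count tables, chosen by symbol: Rn7sk, Rmrp, Rpph1, Rny1 and Rny3 as the 5 Pol III transcripts, and Terc, Rnu11 and Rnu12 as the 3 Pol II transcripts. The libraries were made from total RNA depleted of ribosomal RNA, taken from naive CD4 T cells of male mice that were sorted from lymph nodes as living TCRb+ CD4+ CD62L+ CD44- cells. There were 4 libraries labelled Cmtr1 cKO, from Cmtr1 fl/fl mice with CD4cre, a Cre transgene that is active in the T lineage from the thymus on, and 2 control libraries from Cmtr1 fl/fl mice without it, so the floxed allele is common to both groups. The age of the mice, the deleted exon and whether animals were pooled are not given in the sources used here, nor is it said whether each library is a mouse of its own. The p-values therefore speak of the spread among these libraries, which may be technical.

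CMTR1 is the methyltransferase that marks the ribose of the nucleotide after the cap of Pol II transcripts. Pol II makes capped RNAs, and the caps of small nuclear RNAs such as U11 and U12 and of telomerase RNA are further methylated to a trimethylguanosine cap. Pol III transcripts do not receive this cap: they keep a triphosphate start or, in 7SK RNA, a methyl group on it, and they end at a run of T in the gene. The same set therefore holds RNAs that are and RNAs that are not made with the structure CMTR1 acts on. The question was how the levels of these RNAs differed between the genotypes, and whether the Pol III members moved apart from the Pol II members.

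Gene counts, the depth behind all values here, came to 9513874 to 11526912 in the Cmtr1 cKO libraries and to 11120548 and 11949838 in the controls. The targeted gene itself, Cmtr1 on chromosome 17, had 16.0, 19.8, 14.6 and 7.57 CPM (the gene's count relative to library size, scaled with TMM factors) in Cmtr1 cKO 1 to 4, against 11.2 and 11.4 CPM in the controls. It was not lower in 3 of the 4 libraries labelled Cmtr1 cKO, and it overlaps Gm28043, another gene on the same strand, so this count is no check on the genotypes, and all directions given here follow the labels. Reads outside annotated exons made up 52.3%, 51.6%, 46.7% and 38.0% of uniquely mapped reads in Cmtr1 cKO 1 to 4, against 37.2% and 34.0% in the controls. CT010467.1, annotated as ribosomal RNA, took 4.77% of all gene counts in the library Cmtr1 cKO 3. The naive T cell list was present in all libraries, with Cd4 at 793 to 864 CPM in Cmtr1 cKO and at 755 and 776 CPM in controls. Of its 10 genes 5 had a log2 fold change below 0. By edgeR 1 was called lower, beside 6.77% of all genes tested, and 0 higher, beside 4.66%. The called gene was Ccr7, a homing receptor, which fell by 0.36 (edgeR adjusted p = 0.0433, Benjamini-Hochberg). DESeq2 called 1 of the 10 lower and 1 higher. The 2 markers of CD8 T cells summed to 17.0 to 21.3 CPM in Cmtr1 cKO and to 23.6 and 28.7 CPM in controls. The 5 NK cell markers summed to 4.34 to 6.11 CPM in Cmtr1 cKO and to 7.34 and 10.2 CPM in controls. Only 2 of these 5, Eomes and Gzma, were tested. Eomes made up most of the sum, with means of 3.91 CPM in Cmtr1 cKO and 6.74 CPM in controls. Gzma and Klrk1 also had lower means in Cmtr1 cKO, while Ncr1 and Klrb1c, at 0 to 4 counts a library, had higher means. No marker of either list was called or was at 0 in all libraries, and the part of these cells in the results was not tested. The summed ranges of B cell, myeloid, regulatory T cell and red cell markers overlapped between the groups. The controls differed in the myeloid sum, at 6.41 and 19.4 CPM, against 5.1 to 7.9 CPM in Cmtr1 cKO. Lyz2 had 11.2 CPM in control 1 and 2.33 CPM in control 2. Of the 3 tested myeloid markers 1 had a log2 fold change below 0. EdgeR called 0 of them, and DESeq2 called 1 lower, beside 5.93% of all genes tested. In bulk libraries, less of an RNA per cell and fewer cells that hold it cannot be told apart.

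The short RNAs whose sequence shows how they work are given here as the GENCODE vM21 transcripts of GRCm38, 5′ to 3′ with T for U. The U11 and U12 RNAs form a single particle that recognises the rare introns of the minor spliceosome, U11 at the 5′ splice site and U12 at the branch site. In Rnu11 (chromosome 4, 132270080 to 132270213, minus strand) the capitals mark the first 7 bases, which can pair with the CCTT-rich start of U12-type introns, and the Sm site, an A followed by a run of T and a G where the Sm protein ring binds.
Rnu11: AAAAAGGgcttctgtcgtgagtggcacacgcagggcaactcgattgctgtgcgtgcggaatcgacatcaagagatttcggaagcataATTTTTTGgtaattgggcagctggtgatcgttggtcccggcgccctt
In Rnu12 (chromosome 15, 83149644 to 83149794, plus strand) they mark the AAGGAA at positions 20 to 25, which pairs with the branch site, and the Sm site.
Rnu12: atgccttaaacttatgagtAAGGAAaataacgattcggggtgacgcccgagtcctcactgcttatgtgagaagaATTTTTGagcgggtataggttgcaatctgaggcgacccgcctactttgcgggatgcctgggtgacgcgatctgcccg

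The Y RNAs show the other kind of end. In Rny1 (chromosome 6, 47788069 to 47788180, minus strand) and Rny3 (chromosome 6, 47781624 to 47781725, plus strand), which lie in 1 cluster, the capitals mark the last 4 bases, the run of T at which Pol III stops and to which the La protein binds.
Rny1: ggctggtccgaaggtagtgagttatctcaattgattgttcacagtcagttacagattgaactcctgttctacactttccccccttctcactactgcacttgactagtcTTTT
Rny3: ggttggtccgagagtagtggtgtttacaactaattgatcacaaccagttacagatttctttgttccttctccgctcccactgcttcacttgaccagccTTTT
The pair shared 81 of 112 aligned positions (72.3%). Telomerase RNA, Terc (chromosome 3, 96414437 to 96414859, minus strand), carries the template from which telomere repeats are copied. It is marked in capitals in the first 60 bases of the GENCODE transcript, which has 423 bases against 397 in RefSeq.
Terc: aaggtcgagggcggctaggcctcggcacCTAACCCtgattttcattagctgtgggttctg
Its last 30 bases hold the ACA box, the motif of the H/ACA class that binds dyskerin.
Terc end: aagtgcacccggaactcggttctcACAacc
Searched on the transcript strand alone in 22683 annotated transcripts of 100 to 450 bases, AAAAAGG was present in 3.84% (as the first bases in 0.0353%), A with 5 or 6 T and a G in 2.99%, AAGGAA in 19.1%, CTAACCC in 0.952%, and a T in all of the last 4 bases in 2.54%.

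The levels of the members spanned a wide range. The members formed a high and a low group when the counts were divided by the annotated length. That length is the one in GENCODE, 423 bases for Terc and 134 for Rnu11, which RefSeq gives as 397 and 108. Rn7sk had a mean of 55977 ± 5098 CPM per kb in Cmtr1 cKO and 74589 ± 12395 CPM per kb in controls (SD, n = 4 and 2, as for every mean ± SD here). Rpph1 and Rmrp followed, at 34513 and 14739 CPM per kb in Cmtr1 cKO and 49746 and 19552 CPM per kb in controls. All 3 are Pol III transcripts. The Pol II members came next, Rnu12 at 164 CPM per kb in Cmtr1 cKO and 201 CPM per kb in controls, Rnu11 at 73.7 and 134 CPM per kb, and Terc at 40.1 and 46.9 CPM per kb, with Cmtr1 cKO given first. The Y RNAs were lowest, Rny3 at 20.5 CPM per kb in Cmtr1 cKO and 27.2 CPM per kb in controls and Rny1 at 4.90 and 10.8 CPM per kb. The order was the same in both groups, and no pair of neighbours in it overlapped between the libraries of a group. The step between Rmrp and Rnu12 was 90.0-fold in Cmtr1 cKO and 97.3-fold in controls. How well such short RNAs are recovered in these libraries was not measured, and Rny1 and Rny3, the shortest at 112 and 102 bases, rest on 3 to 16 and 17 to 31 counts a library.

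**Figure D1:**
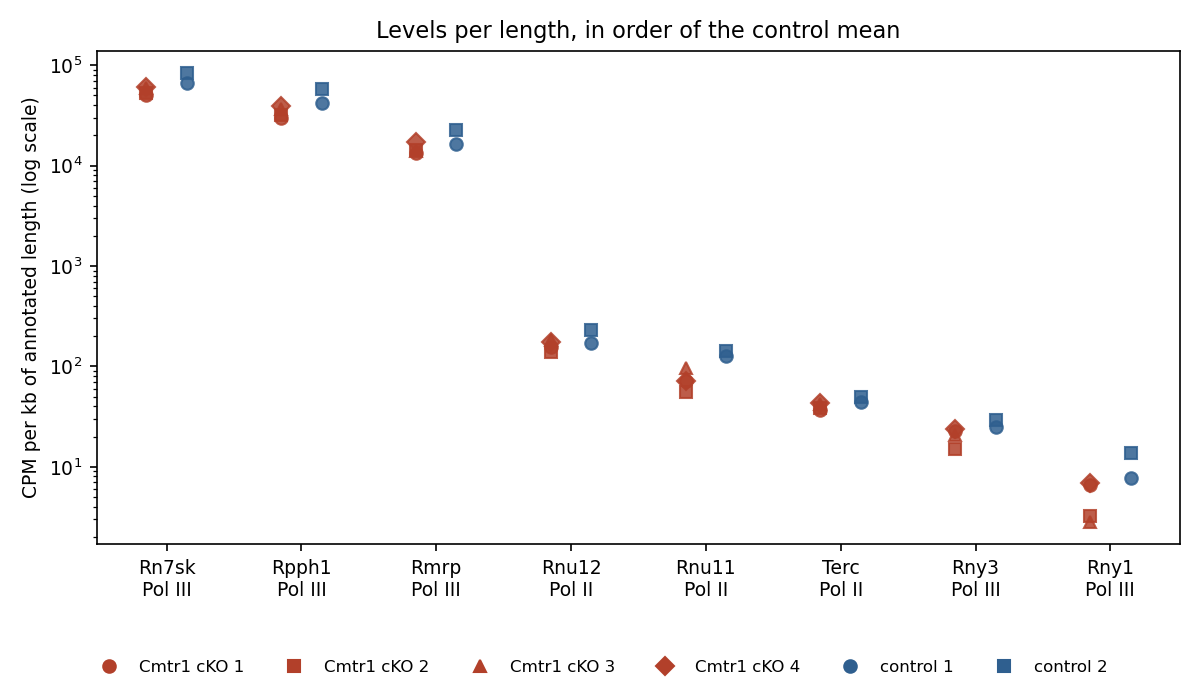
Level of each structured RNA in each library, as CPM per kb of annotated length on a log scale, with Cmtr1 cKO libraries (red) left of controls (blue) and the genes in the order of the control mean. Rn7sk, Rpph1 and Rmrp sit far above the others, Rmrp at 14739 (Cmtr1 cKO) and 19552 (control) CPM per kb on average, and Rny1 is lowest at 4.90 (Cmtr1 cKO) and 10.8 (control) CPM per kb on average.

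Of the 8 members 7 passed the filter on low counts and were tested, and 1, Rnu11, was called lower in Cmtr1 cKO, beside 6.77% of all 12748 genes tested. A call is an adjusted p under 0.05 (Benjamini-Hochberg over all genes tested) in the quasi-likelihood test of edgeR. None of the 7 was called higher, beside 4.66% of all genes tested. At an unadjusted p under 0.05 there were 4 of 7 lower, beside 15.7% of all genes tested, and 0 higher, beside 15.1%. DESeq2 called 4 of the 7 lower, beside 5.93% of all genes, and 0 higher. The members called lower numbered 3 in edgeR without a filter (beside 4.43% of all genes) and 3 without Cmtr1 cKO 4 (beside 15.4%). They numbered 1 of 8 when counts were scaled to uniquely mapped reads (beside 7.93%) and 0 with the percentage of reads outside exons in the model (beside 2.71%). The log2 fold changes of the 7 tested members ran from -0.86 to -0.22 with a median of -0.41, beside a median of -0.0005 over all genes tested. In 5 of the 7 tested members every Cmtr1 cKO library lay below both controls, an order that 20.8% of all genes tested had. Rmrp and Rnu12 did not have it, and Rny1, which was not tested, did. All 8 members together took 3.18%, 3.33%, 3.51% and 3.78% of gene counts in Cmtr1 cKO 1 to 4, against 3.80% and 4.83% in controls 1 and 2.

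**Figure D2:**
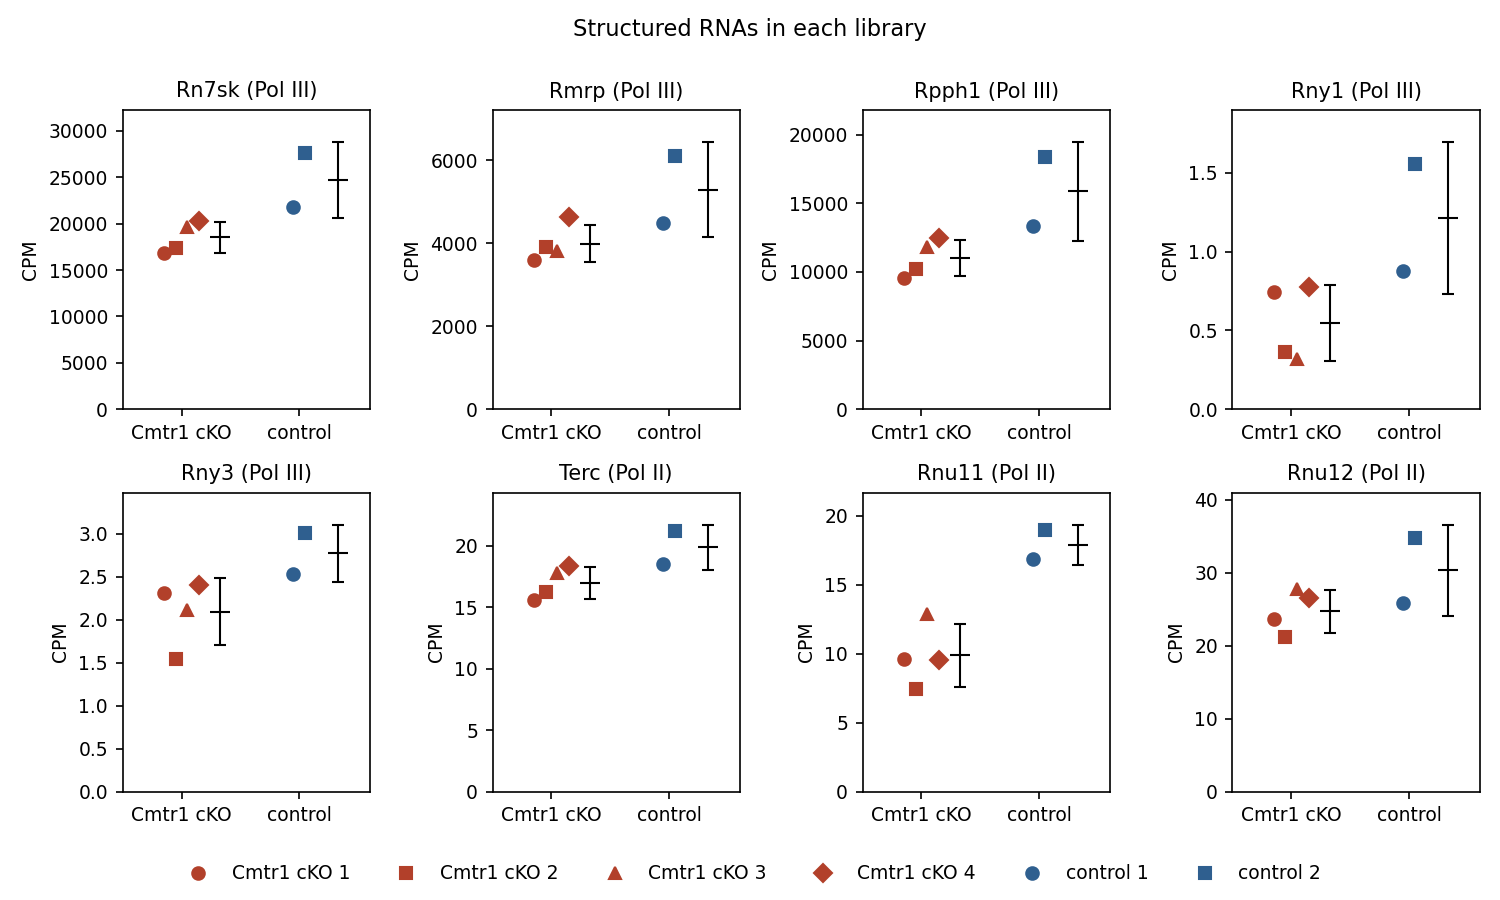
CPM of the 8 structured RNAs in each library, with Cmtr1 cKO (red) left of control (blue) in every panel and black bars for the mean ± SD. Every Cmtr1 cKO library lies below both controls except for Cmtr1 cKO 4 in Rmrp and Cmtr1 cKO 3 and 4 in Rnu12, and control 2 is the highest library in all 8 panels.

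Rnu11, the U11 RNA that reads the 5′ splice site of minor introns, had the lowest fold change of the 7 tested members. It had 9.63, 7.44, 12.9 and 9.55 CPM in Cmtr1 cKO 1 to 4, from 104, 82, 122 and 111 counts, against 16.9 and 18.9 CPM in controls 1 and 2, from 193 and 195 counts. Even the highest Cmtr1 cKO library, number 3, was below the lower control. Rnu11 fell to 0.550 of the control level, by 0.86 ± 0.18 on the log2 scale (SE, adjusted p = 0.0137 in edgeR, Benjamini-Hochberg). The call ended without either control, at log2 fold changes of -0.94 without control 1 and -0.77 without control 2 (edgeR adjusted p = 0.0922 and 0.173). With the percentage of reads outside exons as a covariate it was -0.71 (edgeR adjusted p = 0.107). All bases of Rnu11 are also covered by Gm28872 on the opposite strand, which had at most 1 count in any library, so Rnu11 can be read only from stranded counts.

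Rnu12, the partner of U11 that pairs with the branch site, was not called. It had 23.6, 21.1, 27.7 and 26.5 CPM in Cmtr1 cKO 1 to 4, against 25.9 and 34.8 CPM in controls 1 and 2. Cmtr1 cKO 3 and 4 were above control 1, so the groups overlapped. The log2 fold change was -0.29 ± 0.14 (SE, edgeR adjusted p = 0.178, Benjamini-Hochberg). It was -0.48 without control 1 and -0.05 without control 2. The ratio of Rnu11 to Rnu12 in CPM, which no scaling of libraries can change, was 0.41, 0.35, 0.47 and 0.36 in Cmtr1 cKO 1 to 4, against 0.65 and 0.55 in controls 1 and 2. All Cmtr1 cKO libraries were below both controls in this ratio, which is lower by 0.60 on the log2 scale, a description without a test.

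Terc, the RNA template of telomerase, had 15.6, 16.2, 17.8 and 18.3 CPM in Cmtr1 cKO 1 to 4, against 18.5 and 21.2 CPM in controls 1 and 2. The groups did not overlap, but Cmtr1 cKO 4 came close to control 1. The log2 fold change of -0.22 ± 0.12 (SE) did not pass (edgeR adjusted p = 0.225, Benjamini-Hochberg). Terc had 168 to 218 counts in each library.

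Among the Pol III members Rn7sk was the most abundant. 7SK RNA holds the elongation factor P-TEFb in an inactive particle and so limits transcription by Pol II. It had 16862, 17332, 19617 and 20303 CPM in Cmtr1 cKO 1 to 4, against 21788 and 27590 CPM in controls 1 and 2. The groups did not overlap, and the gap between control 1 and Cmtr1 cKO 4 was smaller than the gap between the controls. Its log2 fold change of -0.41 ± 0.18 (SE) did not pass edgeR's test (adjusted p = 0.152, Benjamini-Hochberg), while DESeq2 called it (adjusted p = 0.00247). The log2 fold change was -0.565 without control 1 and -0.22 without control 2, and with the covariate it was -0.16. Rn7sk alone took 1.783% (95% Wilson interval 1.775% to 1.792%) of gene counts in Cmtr1 cKO 1 and 2.555% (2.545% to 2.564%) in control 2, the lowest and the highest library. These intervals cover counting error only.

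Rpph1 and Rmrp are the catalytic RNAs of sister enzymes that share most of their proteins. RNase P, with Rpph1, trims the 5′ ends of precursor tRNAs, and RNase MRP, with Rmrp, cuts precursor ribosomal RNA. Rpph1 had 9585, 10213, 11788 and 12452 CPM in Cmtr1 cKO 1 to 4, against 13323 and 18415 CPM in controls 1 and 2. The groups did not overlap, and the log2 fold change of -0.53 ± 0.19 (SE) missed the threshold (edgeR adjusted p = 0.0880, Benjamini-Hochberg). DESeq2 called Rpph1 (adjusted p = 0.000724), and so did edgeR without Cmtr1 cKO 4 (adjusted p = 0.0184) or without a filter (adjusted p = 0.00743). In GENCODE vM21 73.0% of Rpph1 (chromosome 14, 50807449 to 50807767) also lies in exons of Ccnb1ip1 on the same strand, and that gene had at most 1 count in any library. Reads that fit both genes would be in neither count. Rpph1 had 103538 to 189611 counts a library, and whether the annotation used for counting held this overlap is not known. The log2 fold change of Rpph1 was -0.73 without control 1 and -0.26 without control 2, and with the covariate -0.19.

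Rmrp had 3606, 3917, 3813 and 4641 CPM in Cmtr1 cKO 1 to 4, against 4489 and 6109 CPM in controls 1 and 2. Cmtr1 cKO 4 was above control 1, so the groups overlapped. The log2 fold change was -0.41 ± 0.16 (SE, edgeR adjusted p = 0.12, Benjamini-Hochberg). DESeq2 called it (adjusted p = 0.0109), as did edgeR without Cmtr1 cKO 4 (adjusted p = 0.0202) and without a filter (adjusted p = 0.0283). The log2 fold change was -0.60 without control 1 and -0.16 without control 2, and with the covariate -0.11. Rmrp (chromosome 4, 43492788 to 43493058) overlaps Ccdc107 on the opposite strand over 45.8% of its bases. In unstranded counts, Rmrp kept 3.42% to 3.94% of its stranded count, and Ccdc107 was at 25.7 ± 1.3 CPM in Cmtr1 cKO and 25.6 ± 2.1 CPM in controls (SD). The ratio of Rpph1 to Rmrp was 2.66, 2.61, 3.09 and 2.68 in Cmtr1 cKO 1 to 4, against 2.97 and 3.01 in controls 1 and 2, so Cmtr1 cKO 3 alone of its group lay above the controls.

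The Y RNAs bind the Ro60 protein, which takes part in the quality control of small RNAs. Rny3 had 25, 17, 20 and 28 counts in Cmtr1 cKO 1 to 4 (2.31, 1.54, 2.12 and 2.41 CPM), against 29 and 31 counts in controls 1 and 2 (2.54 and 3.01 CPM). The groups did not overlap in CPM, and the log2 fold change was -0.40 ± 0.28 (SE, edgeR adjusted p = 0.360, Benjamini-Hochberg). Rny1 had 8, 4, 3 and 9 counts in Cmtr1 cKO 1 to 4 (0.741, 0.363, 0.317 and 0.774 CPM), against 10 and 16 counts in controls 1 and 2 (0.874 and 1.55 CPM). It did not reach the filter. Tested without a filter it had a log2 fold change of -1.09 (edgeR adjusted p = 0.218, Benjamini-Hochberg), and a difference was not detectable at this depth.

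**Figure D3:**
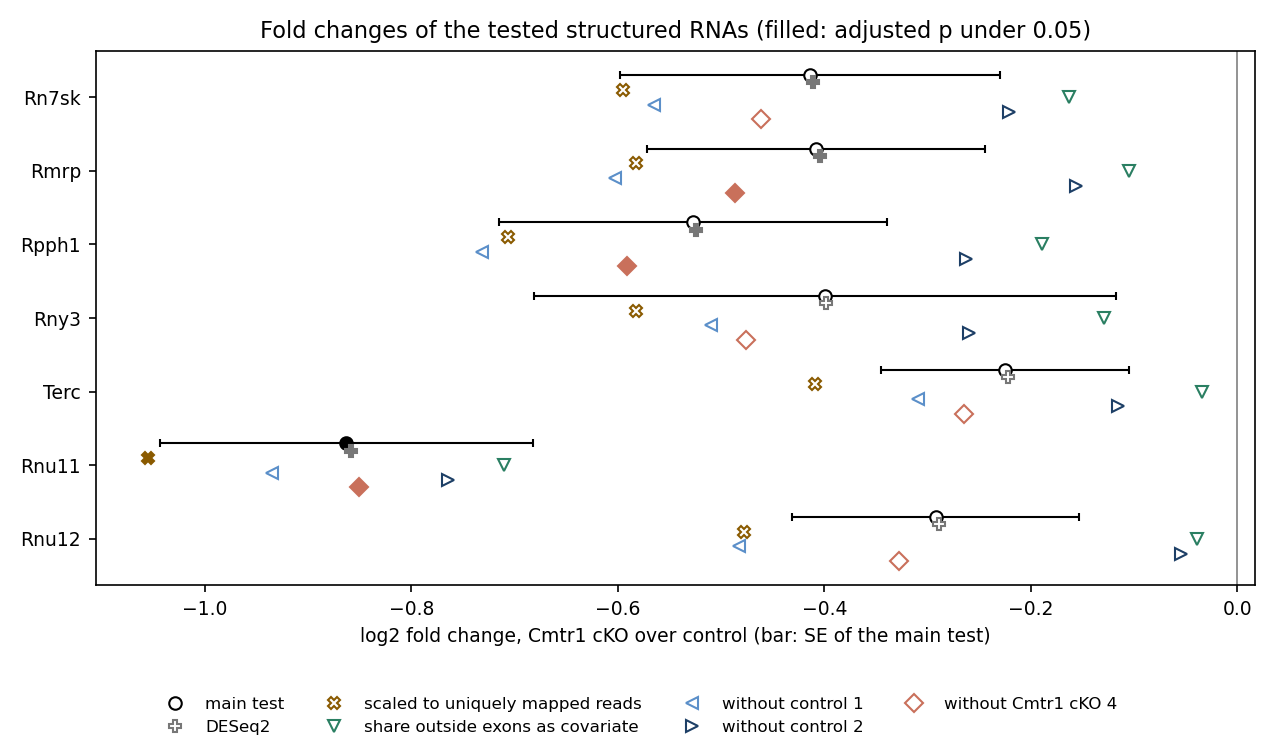
Log2 fold change (Cmtr1 cKO over control) of the 7 tested structured RNAs in the main test, with bars for the SE, and under 6 of the alternatives. Filled symbols have an adjusted p under 0.05. All symbols lie below 0, those without control 2 and with the covariate lie nearest to 0 for every gene, and Rnu11 stands lowest at -0.86.

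The ratio of Pol III to Pol II members overlapped between the groups. Summed over members, the Pol III transcripts had 616, 702, 603 and 688 times the CPM of the Pol II transcripts in Cmtr1 cKO 1 to 4, against 646 and 696 times in controls 1 and 2. The control values lay inside the range of the Cmtr1 cKO values, and the mean log2 ratios were 9.35 ± 0.11 in Cmtr1 cKO and 9.39 ± 0.08 in controls (SD), a difference of -0.04. That difference was 0.01 without control 2. Without Rn7sk, which makes up much of the sum, it was -0.08, and again the groups overlapped. With Rnu11 left out of the Pol II sum, a choice made with its values known, the ratio was 768, 842, 774 and 835 in Cmtr1 cKO 1 to 4 and 892 and 932 in controls 1 and 2, lower in all Cmtr1 cKO libraries. The members of 1 class also differed among themselves: the log2 fold changes of the Pol II members ran from -0.86 (Rnu11) to -0.22 (Terc), and those of the tested Pol III members from -0.53 (Rpph1) to -0.40 (Rny3). These ratios have no test, since the members were chosen with results of these libraries known.

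**Figure D4:**
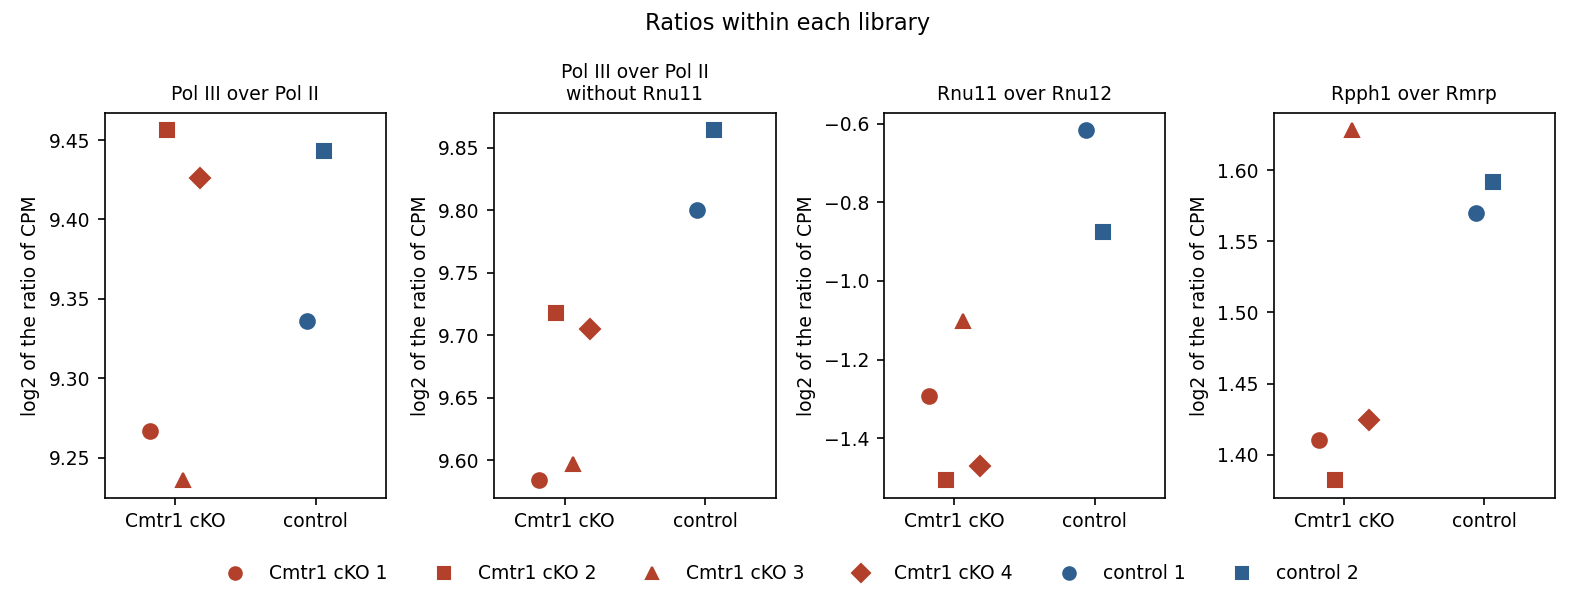
Log2 ratios of CPM within each library, with Cmtr1 cKO (red) left of control (blue): summed Pol III over summed Pol II members, the same without Rnu11, Rnu11 over Rnu12, and Rpph1 over Rmrp. The groups overlap in the first and last panels and are apart in the other panels, where Rnu11 over Rnu12 is 0.60 lower in Cmtr1 cKO.

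The Cmtr1 cKO libraries differed in how far the members lay below the controls. The median of the tested members against the control mean was -0.55, -0.52, -0.39 and -0.20 (log2) in Cmtr1 cKO 1 to 4, the order in which the share of reads outside exons runs from 52.3% to 38.0%. Over the 6 libraries, Pearson's r of log2 CPM with Rn7sk was 0.999 for Rpph1, 0.985 for Terc, 0.947 for Rmrp, 0.917 for Rnu12, 0.859 for Rnu11 and 0.783 for Rny3. These points share the libraries and their scaling, and 201 of 12741 other genes had an r above 0.95 with Rn7sk. The highest were Rapgef1 (0.997), Rab5c (0.993) and Zfp266 (0.993), none of them called. For Rnu11 the highest of 12741 genes were Mfsd14b (0.997), P2rx7 (0.997) and Lnx2 (0.995), of which P2rx7 was called, at a log2 fold change of -0.41 (edgeR adjusted p = 0.0340, Benjamini-Hochberg). Other classes of small RNA genes differed in direction, beside 6.77% of all genes tested called lower and 4.66% higher. The 99 tested snoRNA genes had a median log2 fold change of -0.13 with 15 called lower and 1 higher, and the 15 scaRNA genes a median of -0.22 with 3 called lower and 0 higher. The 45 tested snRNA genes, Rnu11 and Rnu12 included, had a median of 0.54 with 5 called lower and 2 higher. The 25 genes annotated as misc_RNA, which include Rn7sk, Rny3 and Terc, had a median of 0.32, and none passed the test. The 558 tested genes with under 450 exon bases had a median of 0.22 with 51 called lower and 21 higher.

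The proteins that bind, make or process these RNAs were measured in 113 tested genes, of which 4 were called lower and 8 higher (10.6% called, beside 11.4% of all genes tested), with a median log2 fold change of 0.01. Scaled to uniquely mapped reads, 6 were called lower and 0 higher: none of the 8 higher calls passed, while all 4 lower calls did. Over all genes that scaling gave 1007 called lower and 205 higher, beside 863 lower and 594 higher with TMM, and moved the median by -0.19 on the log2 scale. With either control left out none of the 113 passed in edgeR, and with the covariate 2 of the 12 stayed called, Ints3 and Prmt5. For each list below, the shares over all genes tested in edgeR were 6.77% called lower and 4.66% called higher. At an unadjusted p under 0.05 they were 15.7% lower and 15.1% higher. Among the 7 genes of the 7SK particle and P-TEFb 0 were called by edgeR or DESeq2 (1 lower and 2 higher at an unadjusted p under 0.05). Larp7, which binds the 3′ end of 7SK, had a log2 fold change of 0.21 ± 0.08 (SE), Mepce, which caps 7SK with a methyl group, -0.25 ± 0.09 (SE), and Hexim1, which inhibits P-TEFb when bound to 7SK, -0.00 ± 0.09 (SE).

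For the enzymes of Rpph1 and Rmrp, 0 of 10 tested protein subunits were called by edgeR or DESeq2 (2 lower and 1 higher at an unadjusted p under 0.05). Pop1 had a log2 fold change of 0.08, Pop4 -0.04 and Rpp30 0.21. Of 7 Y RNA and La binding proteins 0 were called by edgeR or DESeq2 (1 lower and 0 higher at an unadjusted p under 0.05). Ro60, listed under its older symbol Trove2, had -0.46 ± 0.15 (SE, edgeR adjusted p = 0.0634, Benjamini-Hochberg), with 7.57 ± 0.45 CPM in Cmtr1 cKO and 10.4 ± 0.1 CPM in controls (SD). Ssb, the La protein, had -0.05 ± 0.07 (SE). Of 10 telomerase and H/ACA proteins 0 were called by edgeR or DESeq2 (1 lower and 3 higher at an unadjusted p under 0.05). Tert, the reverse transcriptase that copies the Terc template, had 0.60 ± 0.20 (SE, edgeR adjusted p = 0.0773, Benjamini-Hochberg), with 6.28 ± 0.82 CPM in Cmtr1 cKO and 4.14 ± 0.05 CPM in controls (SD), and Dkc1, dyskerin, had 0.10.

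Of 14 tested minor spliceosome proteins 2 were called higher and 1 lower by edgeR, beside 4.66% and 6.77% of all genes tested. Their median log2 fold change was -0.06, and DESeq2 also called 2 higher and 1 lower. Rnpc3, the protein that bridges U11 and U12, rose by 0.31 ± 0.08 (SE, edgeR adjusted p = 0.0405, Benjamini-Hochberg), at 69.1 ± 4.8 CPM in Cmtr1 cKO and 55.8 ± 2.0 CPM in controls (SD). Zrsr2, which recognises the 3′ splice site of minor introns, rose by 0.46 ± 0.12 (SE), at 64.8 ± 9.4 CPM in Cmtr1 cKO and 47.3 ± 2.4 CPM in controls (SD). Its intronless paralog Zrsr1 fell by 0.50 ± 0.12 (SE), at 19.2 ± 2.2 CPM in Cmtr1 cKO and 27.2 ± 2.1 CPM in controls (SD), and reads that fit both copies are in neither count. Snrnp25 and Snrnp48, proteins of the U11 particle, had -0.12 and 0.09 and were not called. Scaled to uniquely mapped reads, Rnpc3 had 0.11 and Zrsr2 0.26 and neither was called, while Zrsr1 was.

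**Figure D5:**
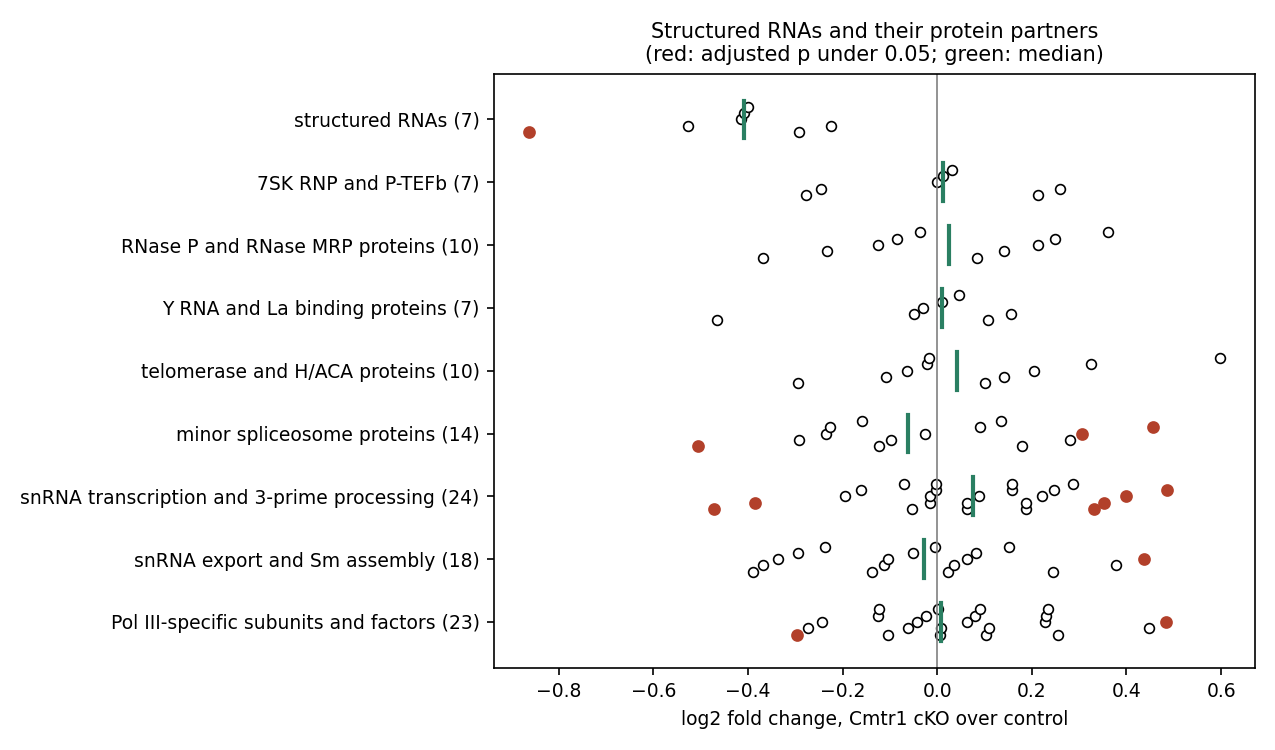
Log2 fold change (Cmtr1 cKO over control) of the tested structured RNAs and of their protein partners by list, with the number tested in brackets. Red points have an adjusted p under 0.05 and green bars are medians, at -0.41 for the structured RNAs and between -0.06 and 0.08 for the 8 protein lists.

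Genes that transcribe and process small nuclear RNAs moved in both directions, with a median of 0.08. Of 24 tested, 4 were called higher and 2 lower by edgeR, beside 4.66% and 6.77% of all genes tested. DESeq2 called 3 higher and 2 lower. Snapc4 and Snapc3, subunits of the complex that binds the promoters of snRNA genes of both polymerases, had log2 fold changes of 0.48 ± 0.12 and 0.40 ± 0.09 (SE) and were called higher. Ints5 and Ints3, subunits of the Integrator complex that cuts the 3′ ends of Pol II snRNAs, fell by 0.47 ± 0.12 and 0.39 ± 0.10 (SE). Snapc1 had -0.00. Of 18 genes of snRNA export and Sm assembly, 1 was called, Prmt5, the arginine methyltransferase of Sm proteins, which rose by 0.44 ± 0.10 (SE). Ncbp1 of the nuclear cap-binding complex had 0.08 and Phax, the snRNA export adaptor, -0.37 ± 0.12 (SE, edgeR adjusted p = 0.0765, Benjamini-Hochberg).

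Of 23 subunits and factors of Pol III, 1 was called higher and 1 lower by edgeR, with a median of 0.01. DESeq2 called 2 higher and 1 lower. Brf1, the factor for Pol III genes with internal promoters such as those of tRNAs, rose by 0.48 ± 0.12 (SE, edgeR adjusted p = 0.0279, Benjamini-Hochberg). Brf2, the factor for Pol III genes with upstream promoters such as Rn7sk, had -0.27 ± 0.18 (SE) and was not called. Maf1, a repressor of Pol III, fell by 0.30 ± 0.08 (SE, edgeR adjusted p = 0.0331, Benjamini-Hochberg), at 74.7 ± 3.9 CPM in Cmtr1 cKO and 91.8 ± 6.0 CPM in controls (SD). Polr3a, the catalytic subunit, had 0.09 ± 0.09 (SE). Of 9 other Pol III RNAs in the count files, 3 were tested and 0 called by edgeR or DESeq2 (1 lower at an unadjusted p under 0.05). Their median log2 fold change was 0.32, and 1 of the 3 was below 0. That was the vault RNA Vaultrc5, at 3.44 ± 1.28 CPM in Cmtr1 cKO and 5.66 ± 1.27 CPM in controls (SD). Rn7s1 and Rn7s2 had log2 fold changes of 0.50 and 0.32, from 4 to 17 and 9 to 17 counts a library. Of 13 other genes listed as Pol II small nuclear RNAs, the Rnu3 genes and Rnu73b are of the small nucleolar class. Among the 13, 9 had no count in any library and 3 were tested, Rnu2-10, Rnu5g and Rnu73b. Of these 3, 0 were called by edgeR or DESeq2 (0 at an unadjusted p under 0.05). Many of the other Pol III and Pol II RNAs have near-identical copies, and reads that map to several places are in no gene's count.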

How the data were processed

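The authors deposited counts of reads per gene for each library, whole numbers that are not normalized, in the layout of STAR gene tables. The submitters' processing notes name STAR 2.5.2b and edgeR, with the builds mm10 and GRCm38. Counting used an annotation not given in the sources used here. Column 4 (stranded) was used. Reads that map to several places or to several genes are in no gene's count, and the lines that name no gene (52.1% to 62.0% of reads) stayed out of library sizes and tests. Identifiers were matched to GENCODE vM21 without version numbers (46488 of 46983).

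Genes were kept by filterByExpr and scaled by TMM, and genotype was tested in all 6 libraries with edgeR 4.0.16 (glmQLFit, robust, and glmQLFTest, R 4.3.3), with Benjamini-Hochberg adjustment over 12748 genes and a threshold of 0.05. The code was tested on simulated data. An SE is the log2 fold change divided by the square root of F. Every pair of libraries of a group differed by more than sampling noise. Chi-square over its degrees of freedom was 1.87 for Cmtr1 cKO 1 and 2, 17.7 to 49.4 for the other Cmtr1 cKO pairs and 6.19 for the controls. By this measure Cmtr1 cKO 1 and 2 were far closer to each other than to Cmtr1 cKO 3 and 4. The measure includes CT010467.1, the ribosomal RNA that took 4.77% of gene counts in Cmtr1 cKO 3. Its part in the values of 42.2 to 49.4 for pairs with that library was not separated. Cmtr1 cKO 4 was at 18.5 and 17.7 against Cmtr1 cKO 1 and 2. The 4 may not be equal replicates, and the tests treat them as such. Alternatives were DESeq2 1.42.0, other scalings, no filter, unstranded counts, the percentage of reads outside exons as a covariate, a replicate block, and leaving out each library. The members and lists were chosen with earlier results of these data known. All members were named, as were the proteins that define each particle and at most the 4 called genes of a list with the largest change. Genes with U12-type introns were not analysed here.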

Additional observations from a re-analysis of the deposited data

Results flagged for a closer look

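The ratio of Rpph1 to Rmrp in Cmtr1 cKO 3 stood apart from the other libraries of its group. At a log2 ratio of 1.63, against 1.38 to 1.42 in the other Cmtr1 cKO libraries, its gap to the nearest library was 0.831 of the group's range, just above Dixon's critical value for 4 libraries. Of 16 such groups of values 1 was beyond its critical value, and chance gives about 1 in 20.

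Reads on the strand opposite to Rn7sk, which the comparisons do not use, were 0.0434%, 0.0277%, 0.0518% and 0.0258% of its own-strand counts in Cmtr1 cKO 1 to 4 (79, 53, 96 and 61 counts), a mean of 0.0372%, against 0.0048% and 0.0141% in controls 1 and 2 (12 and 40 counts). All Cmtr1 cKO libraries were above both controls. Of the 8 members checked, only Rn7sk had every Cmtr1 cKO library above both controls. Over all genes, counts on the own strand were 18.7, 18.9, 5.57 and 22.1 times those on the other strand in Cmtr1 cKO 1 to 4, against 22.5 and 22.7 times in controls 1 and 2, so the share of opposite-strand counts was higher in every Cmtr1 cKO library there too. The part of this difference in the Rn7sk values was not tested.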

How the results depend on the processing

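The log2 fold change of every tested member was below 0 under all 14 alternatives that tested it, and under unstranded counts Rnu11 could not be tested, since reads over Gm28872 are then in no gene's count. Members called lower numbered 1 in the main test, 3 without a filter (Rmrp, Rpph1 and Rnu11), 4 in DESeq2 (Rn7sk besides), 0 with unstranded counts, 0 with the percentage of reads outside exons as a covariate, and 0 to 3 with 1 library left out. The median of the tested members was -0.41 in the main test, -0.59 when scaled to uniquely mapped reads (all genes -0.19), -0.13 with the covariate, and -0.58 to -0.22 with 1 library left out. The difference in the Pol III to Pol II log2 ratio, -0.04, was -0.19 with unstranded counts, which hold no Rnu11 reads, and ran from -0.10 to 0.01 with 1 library left out, turning its sign at 0.011 without control 2. Genes called among all tested numbered 1457 in the main test, 2272 without a filter and 666 with the covariate, and 193 (without control 2) to 3880 (without Cmtr1 cKO 4) with 1 library left out. Calls among the protein partners numbered 12, then 6 when scaled to uniquely mapped reads (all lower), 6 with the covariate, and 0 to 31 with 1 library left out. Where the cause of these changes is not named, it was not tested.

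With replicate numbers 1 and 2 as a replicate block, over the 4 libraries that share them, 5 members (Rn7sk, Rmrp, Rpph1, Rnu11 and Rnu12), 36 partners and 4830 genes were called (19.1% of genes called lower). The deviations from the group means correlated at 0.13 for the libraries numbered 1 and at -0.13 for those numbered 2. With 2 controls, the deviations of 1 control are those of the other with the sign turned. Cmtr1 cKO 2 correlated with control 1 at 0.13 too. These correlations therefore cannot tell whether the numbers pair the libraries. Depth limits Rny1 and Rny3, and the count of 2 controls limits every call.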
